A study of Mus musculus with 6 samples.

Results

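The 32 genes described here encode the enzymes, carriers and regulators of fatty acid oxidation and ketogenesis. The rule that chose them used their names as mitochondrial, peroxisomal and ketogenic genes and no measured values. Earlier results of these data were known when they were chosen. They are 32 of the 55487 genes in the count tables. By place and role of their products, 17 are classed as mitochondrial, 8 as peroxisomal and 1, Bdh1, as ketogenic, although its product is also mitochondrial. The other 6 are the regulator Ppara, the acyl-CoA synthetases Acsl1 and Acsl5, the cytosolic thioesterase Acot1, the kinase Pdk4 and the pantetheinase Vnn1.

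RNA was sequenced from cultured primary hepatocytes, the main metabolic cells of the liver, that had received no treatment. Alb/MDA-9 mice were heterozygous for a transgene in which an enhancer and the core promoter of the mouse albumin gene drive human MDA-9/SDCBP, the scaffold protein syntenin, tagged with HA at the C-terminal end. WT mice were their littermates without it. Both groups shared the B6CBAF1 background and regular chow, ages were not given in the sources used here, and each group had 3 libraries, numbered 1 to 3. The albumin promoter is active in hepatocytes, so the design sets hepatocytes that carry the transgene against hepatocytes without it. Segments of the parental strains that a group shared by chance cannot be told apart from an effect of the transgene. Nothing in the labels ties the libraries of a group to different animals or cultures. The p-values therefore cover only how far these libraries spread, which may be technical.

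Libraries held 16756725 to 19046739 reads on the annotated strand of genes in Alb/MDA-9 and 16403918 to 18967611 in WT. All 12 hepatocyte markers were read, with summed levels of 89665 to 105040 CPM in Alb/MDA-9 and 85117 to 88219 CPM in WT, most of it from Alb. In Alb/MDA-9, 2 of these 12 markers passed the test upward and 2 downward, the lower ones being the urea cycle genes Cps1 (log2 change -0.95) and Ass1 (-0.75), and the median log2 change was -0.10. CPM are read counts scaled to library size, here with TMM factors, which correct for differences in library composition. Alb/MDA-9 3 lay far from the remaining 5 on the second principal component, with a score of -32.87, against 16.25 and 14.34 for Alb/MDA-9 1 and 2 and -2.591 to 3.17 for WT. Among the 32 genes, Alb/MDA-9 3 was the highest library of its group for 16 and the lowest for 9. Of the 8 Kupffer cell markers that changed, out of 11, all were lower in Alb/MDA-9, with summed levels over the list of 238 to 395 CPM against 411 to 426 CPM in WT. Most of that sum came from Cd68, which did not pass the test (322, 284 and 137 CPM in Alb/MDA-9, against 262, 267 and 284 CPM in WT). Endothelial markers summed to 193 to 211 CPM in Alb/MDA-9 and 252 to 276 CPM in WT, with 4 of 9 lower, and stellate cell markers to 118 to 127 CPM and 178 to 187 CPM, with 5 of 10 lower. Cholangiocyte markers summed to 283 to 400 CPM in Alb/MDA-9 and 80.8 to 91.2 CPM in WT, most of it from Spp1 in Alb/MDA-9, with 3 higher and 1 lower of 6 tested and Cftr at 0 reads. Markers of lymphocytes (Cd3d and Nkg7 among those at 0 reads) summed to at most 2.51 CPM and those of neutrophils (Ly6g and Retnlg at 0) to at most 0.828 CPM in any library. Adipocyte markers summed to 76.9 to 88.8 CPM in Alb/MDA-9 and 67.3 to 73.6 CPM in WT, almost all of it from Fabp4. Fabp4 did not pass the test (edgeR adjusted p = 0.0806). Cfd and Lep had 0 reads, and Adipoq, Plin1 and Ucp1 had at most 0.233 CPM in any library. The Kupffer, endothelial, stellate and cholangiocyte marker levels moved with genotype alongside every result given here, and their part in the results was not tested. Counts cover mouse genes, so the human transgene could not be read from them and the genotype labels were not checked by it.

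Fatty acids are first joined to coenzyme A, and long chains then enter mitochondria through the carnitine shuttle. Inside, a repeated cycle of dehydrogenation, hydration, a second dehydrogenation and thiolytic cleavage releases acetyl-CoA, and electrons pass to the respiratory chain through the electron transfer flavoprotein. Peroxisomes run a parallel cycle on very long and branched chains. In the fasting liver the acetyl-CoA feeds ketogenesis, and the nuclear receptor PPAR-alpha, encoded by Ppara, switches on genes of all these steps by binding DNA together with RXR at a direct repeat of a short core site.

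Upstream sequences of Hadha, Acadvl, Decr2 and Acaa1b, which are among the genes that changed, are shown here because the core site of that receptor, AGGTCA, was searched in them. That of Acaa1a, which did not pass the test, is shown beside its near-identical copy, and none is shown for Etfdh, whose upstream bases in the window all lie in annotated exons, or for Vnn1. They were taken from RefSeq promoter windows on GRCm38.p6, which hold 250 bases before and 50 bases after an annotated start, and are cut to the longest upstream stretch that lies in no annotated exon. Hadha and Hadhb, the alpha and beta subunits of the mitochondrial trifunctional protein, start back to back 85 bases apart on chromosome 5, and the whole interval between them is chr5:30155163-30155247, read on the plus strand. The stretch for Acadvl is chr11:70015429-70015678 on the minus strand. For Decr2 it is chr17:26090338-26090414 on the minus strand. For the near-identical thiolase genes it is chr9:119157094-119157343 on the minus strand for Acaa1b and chr9:119341160-119341293 on the plus strand for Acaa1a. Each is written 5′ to 3′ in lower case, and capitals mark a core site.
Hadha and Hadhb interval: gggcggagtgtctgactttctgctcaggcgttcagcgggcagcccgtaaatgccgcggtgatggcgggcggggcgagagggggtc
Acadvl: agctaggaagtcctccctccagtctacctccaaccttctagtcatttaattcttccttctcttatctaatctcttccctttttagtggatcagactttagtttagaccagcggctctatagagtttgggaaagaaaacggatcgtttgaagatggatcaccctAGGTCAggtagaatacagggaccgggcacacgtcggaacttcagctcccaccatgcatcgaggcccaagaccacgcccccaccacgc
Decr2: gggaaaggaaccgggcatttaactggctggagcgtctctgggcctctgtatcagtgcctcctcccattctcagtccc
Acaa1b: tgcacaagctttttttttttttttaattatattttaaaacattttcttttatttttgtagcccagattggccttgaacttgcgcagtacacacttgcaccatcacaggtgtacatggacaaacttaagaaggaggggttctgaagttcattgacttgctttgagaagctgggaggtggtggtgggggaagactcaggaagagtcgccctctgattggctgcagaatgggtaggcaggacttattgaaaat
Acaa1a: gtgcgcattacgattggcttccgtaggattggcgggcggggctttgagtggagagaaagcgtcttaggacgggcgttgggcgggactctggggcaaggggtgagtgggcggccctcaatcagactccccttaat

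The direct repeat, the core site AGGTCA repeated in the same orientation with any 1 base between, was searched on both strands of the 31 windows that matched 29 of the genes. It occurred in 0 of these windows and in 13 of all 32851 mouse windows (0.0396%). At so low a share, 31 windows are too few for the 0 to be informative. The search allowed no mismatch and no site outside the windows, so it does not show whether these genes have such elements. The single core site, which the repeat contains, occurred in 4 of the 31 windows (12.9%), those of Acadvl, Acadm, Acot4 and Cpt1a, against 16.3% of all windows. The shared interval of Hadha and Hadhb held 69.4% G and C with 9 CG pairs in 85 bases. The Acaa1b stretch held 41.6% G and C with 2 CG pairs in 250 bases, and the Acaa1a stretch 61.2% with 10 CG pairs in 134 bases. The promoter windows of these thiolase genes gave no BLAST alignment with each other at an expect value limit of 0.001, although their transcripts were 96.6% identical over 1428 bases.

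The test could be run on 31 of the genes, of which Alb/MDA-9 had 3 higher and 3 lower than WT (adjusted p under 0.05 by Benjamini-Hochberg over 13296 genes, quasi-likelihood test of edgeR). The background shares of all tested genes were 7.35% higher and 7.09% lower, 14.4% together. The 6 of 31 genes are therefore close to the background. The rises were in the mitochondrial enzymes Acadvl, Hadha and Etfdh, and the falls in the peroxisomal enzymes Decr2 and Acaa1b and in Vnn1. The median log2 change over the 31 genes was 0.01, against -0.0015 over all genes, with 16 changes above 0 and 15 below. At an unadjusted p under 0.05 stood 10 of the 31 genes, near the background share of 27.9% of all genes. The libraries of the groups did not overlap for 10 genes, 6 higher and 4 lower, where the background share was 33.6% of all genes (17.1% higher and 16.5% lower). In bulk RNA, fewer cells of a type and less RNA per cell cannot be told apart.

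Among the 17 mitochondrial genes 3 rose and 0 fell, 11 log2 changes were above 0, and the median was 0.07 with a range of -0.19 to 0.33. Among the 8 peroxisomal genes 0 rose and 2 fell, with 4 changes above 0, a median of 0.01 and a range of -0.83 to 0.19. At an unadjusted p under 0.05 (27.9% of all genes) stood 6 of the 17 mitochondrial and 2 of the 8 peroxisomal genes. Whether the classes differ was not tested, and the 17 leave out the mitochondrial enzyme Bdh1 (log2 change -0.45) and the kinase Pdk4 (-0.15). The calls of the 3 rises depended on scaling and on which libraries were kept. Their log2 changes stayed above 0 with any 1 library left out. They ranged from 0.21 to 0.32 for Acadvl, 0.23 to 0.27 for Hadha and 0.22 to 0.28 for Etfdh. With library totals in place of TMM factors, which moved the median over all genes by -0.10 on the log2 scale, 0 of the 31 genes were higher, as with upper-quartile factors, and also without Alb/MDA-9 2 or without any 1 of the 3 WT libraries. Without Alb/MDA-9 3, 4 genes were higher (Acadvl, Acadm, Hadha and Etfdh) and 5 lower (Cpt1a, Decr2, Acaa1b, Bdh1 and Vnn1). Without Alb/MDA-9 1, 5 genes were higher (Acadvl, Acadl, Acads, Hadha and Decr1), and without WT 1 or WT 2 only Decr2 was lower.

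**Figure D1:**
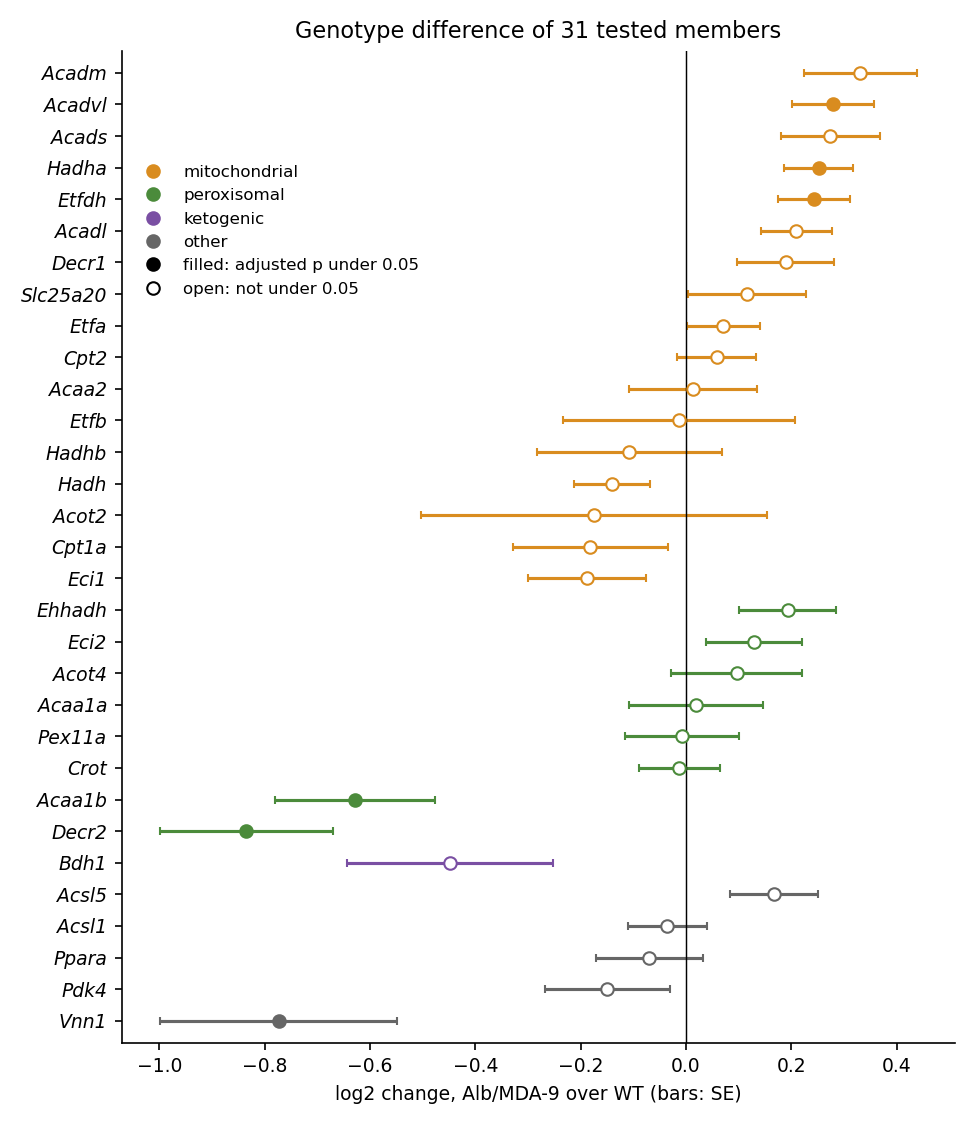
Log2 change of each tested gene, Alb/MDA-9 over WT (points) with its SE (bars), from the edgeR model on 3 libraries per group, coloured by class and filled where the adjusted p was under 0.05. The filled points are Acadvl, Hadha and Etfdh above 0 and Acaa1b, Decr2 and Vnn1 below 0.

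Ppara itself had 22.5, 23.2 and 19.4 CPM in Alb/MDA-9, against 23.1, 23.5 and 21.7 CPM in WT. The groups overlapped, and the log2 change of -0.07 (SE 0.10, 95% interval -0.29 to 0.15) did not pass the test (edgeR adjusted p = 0.705). Acsl5 and Acsl1 encode long-chain acyl-CoA synthetases, which activate fatty acids. Acsl5 had 493, 535 and 614 CPM in Alb/MDA-9, against 488, 482 and 493 CPM in WT. The Alb/MDA-9 libraries of Acsl5 all lay above the WT ones, the lowest by less than 1 CPM, and the log2 change of 0.17 (SE 0.08) did not pass (edgeR adjusted p = 0.216). Acsl1 averaged 65.3 ± 4.20 CPM in Alb/MDA-9 and 66.9 ± 2.57 CPM in WT (SD, n = 3 each). Reads of Acsl1 were 13.2%, 11.4% and 11.3% of those of Acsl5 in Alb/MDA-9, against 13.5%, 13.5% and 14.2% in WT, so this within-library ratio, which needs no scaling between libraries, was lower in each Alb/MDA-9 library.

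The carnitine shuttle genes did not pass the test. Cpt1a, the outer-membrane carnitine palmitoyltransferase that sets the rate of long-chain entry, had 27.4, 30.3 and 43.5 CPM in Alb/MDA-9, against 43.0, 36.0 and 35.6 CPM in WT. Alb/MDA-9 1 and 2 lay below all WT libraries and Alb/MDA-9 3 lay above them. The log2 change was -0.18 (SE 0.15, edgeR adjusted p = 0.458) with all libraries and -0.41 (edgeR adjusted p = 0.0128) without Alb/MDA-9 3. Slc25a20, the inner-membrane carrier of acylcarnitines, averaged 21.1 ± 1.56 CPM in Alb/MDA-9 and 19.5 ± 2.12 CPM in WT. Cpt2, which transfers the chains back to coenzyme A in the matrix, averaged 48.1 ± 2.76 CPM in Alb/MDA-9 and 46.2 ± 1.13 CPM in WT. Both pairs of groups overlapped. Slc25a20 was 98.4% identical to Tmem72 over 366 bases and had other near-identical copies of that length, which limits its count.

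The acyl-CoA dehydrogenases, which catalyse the first step of the cycle on chains of decreasing length, had log2 changes above 0 in all 4 cases, under every scaling, and 1 of the 4 passed the test. Acadvl (ENSMUSG00000018574, chromosome 11, 70010183 to 70015411 on GRCm38), the very long-chain enzyme, had 211, 245 and 219 CPM in Alb/MDA-9, against 173, 191 and 192 CPM in WT. The groups did not overlap, and it rose by 1.21-fold (log2 change 0.28, SE 0.08, edgeR adjusted p = 0.0325). Its call was lost without Alb/MDA-9 2 (edgeR adjusted p = 0.153), without WT 1 (0.115), WT 2 (0.0919) or WT 3 (0.0655), and when reads of both strands were counted (0.0800). The exons of Acadvl share 1151 bases with Dvl2 on the opposite strand.

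Acadm, the medium-chain enzyme, had 397, 394 and 291 CPM in Alb/MDA-9, against 267, 296 and 297 CPM in WT. Alb/MDA-9 1 and 2 lay above all WT libraries, and Alb/MDA-9 3 lay among them. With all libraries the log2 change of 0.33 (SE 0.11) had an edgeR adjusted p of 0.0600, and without Alb/MDA-9 3 it was 0.46 with an edgeR adjusted p of 0.00023. Acadl, the long-chain enzyme, had 161, 174 and 173 CPM in Alb/MDA-9, against 143, 149 and 148 CPM in WT. Its groups did not overlap, and its log2 change of 0.21 (SE 0.07) had an edgeR adjusted p of 0.0574. Acads, the short-chain enzyme, had 66.0, 72.2 and 85.7 CPM in Alb/MDA-9, against 64.3, 61.6 and 59.1 CPM in WT, also with no overlap (log2 change 0.27, SE 0.09, edgeR adjusted p = 0.0724). Without Alb/MDA-9 1, Acadl and Acads passed the test (edgeR adjusted p = 0.0453 and 0.0261).

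Of the 4 genes of the later steps of the cycle, 1 passed the test. Hadha (ENSMUSG00000025745, chromosome 5, 30118304 to 30155162), the subunit that hydrates long-chain intermediates and dehydrogenates them again, had 190, 187 and 196 CPM in Alb/MDA-9, against 159, 157 and 165 CPM in WT. The lowest Alb/MDA-9 library lay above the highest WT library, and the rise was 1.19-fold (log2 change 0.25, SE 0.07, edgeR adjusted p = 0.0226). The call was lost without Alb/MDA-9 2 (edgeR adjusted p = 0.0620) and without WT 1 (0.0592), WT 2 (0.122) or WT 3 (0.0561). Hadhb, the thiolase subunit of the same complex, whose gene starts in the interval printed above, had 7.62, 6.64 and 5.30 CPM in Alb/MDA-9, against 7.37, 6.41 and 7.34 CPM in WT. Its groups overlapped (log2 change -0.11, SE 0.18, 95% interval -0.49 to 0.27). Hadhb reads were 4.02%, 3.55% and 2.703% of Hadha reads in Alb/MDA-9, against 4.64%, 4.08% and 4.44% in WT. The ratio was lower in each Alb/MDA-9 library than in any WT library. It rests on 88 to 146 Hadhb reads per library. Why Hadhb had so few reads beside its partner subunit was not tested, so its level and this ratio are uncertain.

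Hadh, the dehydrogenase for shorter chains, had 55.6, 52.4 and 55.8 CPM in Alb/MDA-9, against 62.9, 60.4 and 57.3 CPM in WT. It was lower in each Alb/MDA-9 library, but the log2 change of -0.14 (SE 0.07) did not pass with TMM factors (edgeR adjusted p = 0.230) and passed with library totals (log2 change -0.24, edgeR adjusted p = 0.0491). Acaa2, the mitochondrial thiolase, had 166, 172 and 116 CPM in Alb/MDA-9, against 140, 154 and 156 CPM in WT. Alb/MDA-9 3 was the lowest of all 6 libraries and the other Alb/MDA-9 libraries the highest, with a log2 change of 0.01 (SE 0.12) whose sign turned with the scaling.

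Electrons from the dehydrogenases pass through the flavoprotein subunits Etfa and Etfb to the inner-membrane oxidoreductase Etfdh. Etfdh (ENSMUSG00000027809, chromosome 3, 79603788 to 79629500) had 155, 144 and 156 CPM in Alb/MDA-9, against 124, 129 and 132 CPM in WT. The groups did not overlap, and it rose by 1.18-fold (log2 change 0.24, SE 0.07, edgeR adjusted p = 0.0336). The call was lost without Alb/MDA-9 1 (edgeR adjusted p = 0.0767), Alb/MDA-9 2 (0.0511), WT 1 (0.0977), WT 2 (0.126) or WT 3 (0.0739). Etfa averaged 106 ± 2.06 CPM in Alb/MDA-9 and 101 ± 5.62 CPM in WT, with overlapping groups. Etfb averaged 5.90 ± 0.920 CPM in Alb/MDA-9 and 5.92 ± 1.69 CPM in WT, and its reads were 4.80% to 6.46% of Etfa reads in Alb/MDA-9 and 3.94% to 7.95% in WT. Etfb shares 617 exon bases with the annotated gene Gm45233 on the same strand, and reads there are assigned to neither gene, which limits its count.

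**Figure D2:**
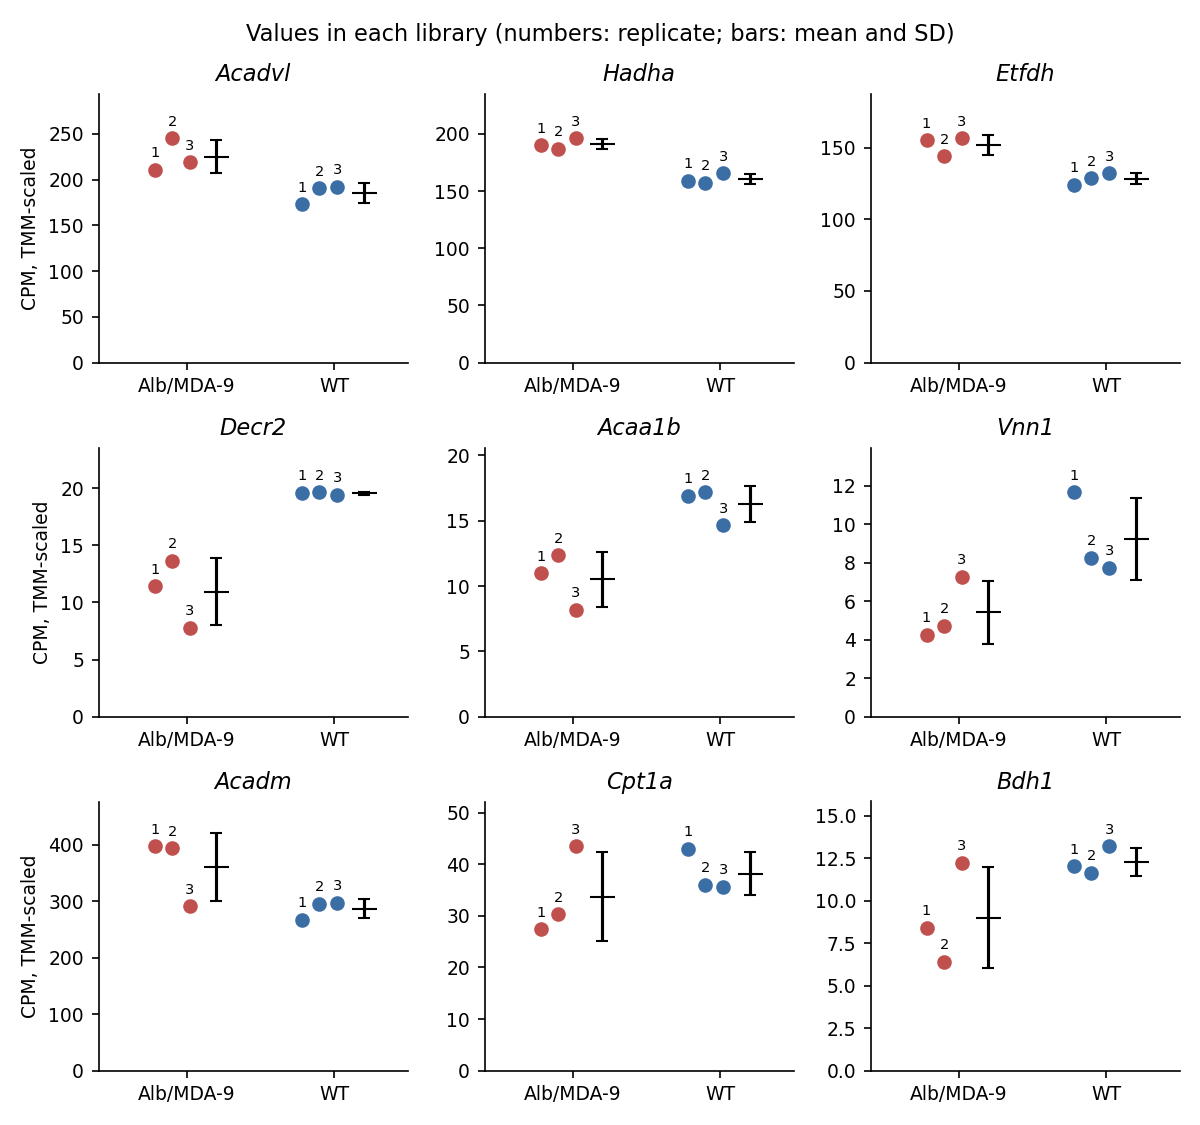
TMM-scaled CPM in each library (points, numbered by replicate) with the mean and SD of each group (bars, n = 3), for the 6 genes past the test and for Acadm, Cpt1a and Bdh1. In the upper rows the groups do not overlap, and in the lower row Alb/MDA-9 3 lies away from Alb/MDA-9 1 and 2 and at or near the WT level.

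Double bonds of unsaturated chains need auxiliary enzymes, each with a mitochondrial and a peroxisomal form. The peroxisomal 2,4-dienoyl-CoA reductase Decr2 (ENSMUSG00000036775, chromosome 17, 26081208 to 26090337) had 11.4, 13.6 and 7.77 CPM in Alb/MDA-9, against 19.6, 19.6 and 19.4 CPM in WT. All Alb/MDA-9 libraries lay below the narrow range of WT. It fell to 0.561 of the WT level (log2 change -0.83, SE 0.17, edgeR adjusted p = 0.0051), the largest change among the 31 genes. Decr2 passed the test in each of the 14 alternative settings, with log2 changes of -1.02 (without Alb/MDA-9 2) to -0.64 (without Alb/MDA-9 3).

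Its mitochondrial counterpart Decr1 had 37.0, 46.8 and 43.6 CPM in Alb/MDA-9, against 37.7, 37.4 and 36.6 CPM in WT. Alb/MDA-9 1 lay among the WT libraries and the others above them. Its log2 change was 0.19 (SE 0.09, edgeR adjusted p = 0.204), and without Alb/MDA-9 1 the gene passed (log2 change 0.28, edgeR adjusted p = 0.0460). Decr2 reads were 30.9%, 29.1% and 17.8% of Decr1 reads in Alb/MDA-9, against 51.9%, 52.5% and 53.1% in WT. The ratio averaged 25.9% ± 7.09 in Alb/MDA-9 and 52.5% ± 0.567 in WT (SD, n = 3 each), with no overlap. The enoyl-CoA isomerases did not pass the test. Eci2, the peroxisomal form, averaged 50.3 ± 6.04 CPM in Alb/MDA-9 and 46.0 ± 1.79 CPM in WT. Eci1, the mitochondrial form, averaged 17.2 ± 1.41 CPM in Alb/MDA-9 and 19.6 ± 1.64 CPM in WT. Their ratio overlapped between the groups, at 237% to 354% in Alb/MDA-9 and 217% to 269% in WT. Eci2 was 95.9% identical to Gm15287 over 612 bases and 96.3% to Gm15280 over 483 bases, which limits its count and this ratio.

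The peroxisomal thiolase is encoded by a pair of genes 182582 bases apart on chromosome 9. Acaa1b (ENSMUSG00000010651, 119148023 to 119157093) had 10.995, 12.3 and 8.19 CPM in Alb/MDA-9, against 16.9, 17.2 and 14.7 CPM in WT. The groups did not overlap, and it fell to 0.647 of the WT level (log2 change -0.63, SE 0.15, edgeR adjusted p = 0.0157). The call was lost without WT 1 (edgeR adjusted p = 0.0605) and without WT 2 (0.0751). Acaa1a had 19.7, 15.8 and 22.2 CPM in Alb/MDA-9, against 18.8, 18.2 and 19.9 CPM in WT, with overlapping groups and a log2 change of 0.02 (SE 0.13) that turned negative with library totals and with upper-quartile factors. Acaa1b reads were 55.9%, 78.2% and 36.9% of Acaa1a reads in Alb/MDA-9, against 89.8%, 94.4% and 73.8% in WT. These ratios overlapped, since Alb/MDA-9 2 lay above WT 3. Because the transcripts are nearly identical and reads that fit both places are not counted, the split between Acaa1a and Acaa1b is uncertain. Reads on the strand opposite to Acaa1a made 19.2% of the reads over it, and its exons share 290 bases with Myd88 on that strand.

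The other peroxisomal genes did not pass the test. Ehhadh, the bifunctional enzyme of the middle steps, had 34.2, 32.8 and 29.7 CPM in Alb/MDA-9, against 29.99, 26.2 and 28.5 CPM in WT (log2 change 0.19, SE 0.09, edgeR adjusted p = 0.194). Alb/MDA-9 1 and 2 lay above all WT libraries and Alb/MDA-9 3 just under the highest. Crot, which attaches shortened chains to carnitine for export, had 97.6, 81.8 and 89.4 CPM in Alb/MDA-9, against 90.5, 91.8 and 88.9 CPM in WT. The groups overlapped, and the 95% interval of the log2 change was -0.18 to 0.16. Pex11a, which promotes peroxisome division, averaged 35.0 ± 4.77 CPM in Alb/MDA-9 and 35.2 ± 3.32 CPM in WT, with a 95% interval of -0.24 to 0.23.

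Thioesterases release the fatty acid from coenzyme A. Acot4, the peroxisomal form, averaged 12.6 ± 0.362 CPM in Alb/MDA-9 and 11.8 ± 1.06 CPM in WT. The mitochondrial form Acot2 had 1.38, 3.09 and 3.55 CPM in Alb/MDA-9, against 3.64, 2.36 and 3.02 CPM in WT. The groups of both genes overlapped. Acot1, the cytosolic form, had 6, 2 and 4 reads in Alb/MDA-9, against 4, 8 and 10 reads in WT, too few for the test, and at these depths 3 reads, the limit that a count of 0 allows, correspond to 0.152 to 0.181 CPM. Acot2 and Acot1 lie 15616 bases apart on chromosome 12 and were 95.1% identical over 1274 bases. Acot4 was 97.1% identical to Acot6 over 543 bases. The counts of these copies are uncertain for that reason.

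Bdh1, the mitochondrial enzyme that turns acetoacetate into beta-hydroxybutyrate, was the ketogenic gene. It had 8.40, 6.41 and 12.2 CPM in Alb/MDA-9, against 12.02, 11.6 and 13.2 CPM in WT. Alb/MDA-9 1 and 2 lay below all WT libraries, and Alb/MDA-9 3 lay among them. The log2 change was -0.45 (SE 0.20, edgeR adjusted p = 0.157) with all libraries and -0.73 (edgeR adjusted p = 0.0052) without Alb/MDA-9 3. Pdk4, the kinase that shuts off pyruvate oxidation when fat is burned, had 12.4, 12.2 and 14.3 CPM in Alb/MDA-9, against 14.7, 13.7 and 14.6 CPM in WT, with overlapping groups (log2 change -0.15, SE 0.12, edgeR adjusted p = 0.449).

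Vnn1 (ENSMUSG00000037440, chromosome 10, 23894688 to 23905343), a pantetheinase that releases the coenzyme A precursor pantothenate, had 4.25, 4.72 and 7.29 CPM in Alb/MDA-9, against 11.7, 8.25 and 7.75 CPM in WT. The groups did not overlap, although Alb/MDA-9 3 lay close to WT 3. It fell to 0.585 of the WT level (log2 change -0.77, SE 0.23, edgeR adjusted p = 0.0378), and without Alb/MDA-9 3 the log2 change was -1.04 (edgeR adjusted p = 0.00277). The call was lost without Alb/MDA-9 1 (edgeR adjusted p = 0.114), Alb/MDA-9 2 (0.143), WT 1 (0.179) or WT 2 (0.0726).

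**Figure D3:**
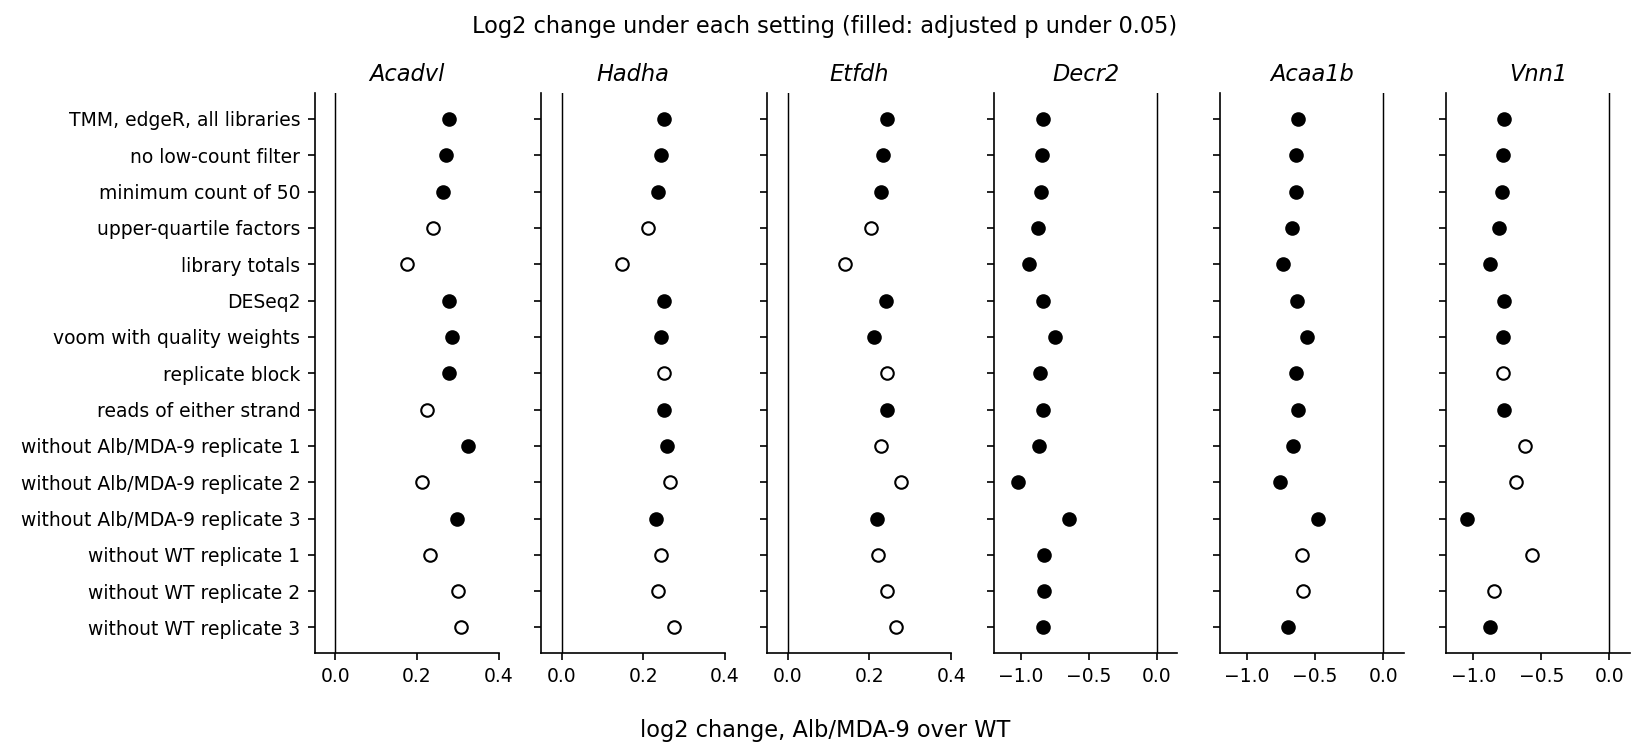
Log2 change, Alb/MDA-9 over WT, of the 6 genes past the test under the main setting (top row) and 14 alternatives, filled where the adjusted p was under 0.05. Decr2 is filled in all 14 alternatives, Acaa1b in 12, Vnn1 in 9, Acadvl and Hadha in 7 each and Etfdh in 6, and the sign of each gene is the same in every row.

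Summed over genes, and in units that do not depend on scaling between libraries, peroxisomal reads were 16.2%, 15.1% and 15.7% of mitochondrial reads in Alb/MDA-9, against 18.9%, 17.8% and 18.2% in WT. This ratio averaged 15.7% ± 0.573 in Alb/MDA-9 and 18.3% ± 0.575 in WT (SD, n = 3 each) and did not overlap. It is given as a description with no test. Summed TMM-scaled levels of the 17 mitochondrial genes were 1662 ± 63.0 CPM in Alb/MDA-9 and 1457 ± 36.6 CPM in WT, and those of the 8 peroxisomal genes 260.4 ± 10.4 CPM and 266 ± 4.93 CPM. All 32 genes together took 0.242%, 0.249% and 0.256% of the reads in Alb/MDA-9 and 0.240%, 0.241% and 0.245% in WT.

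**Figure D4:**
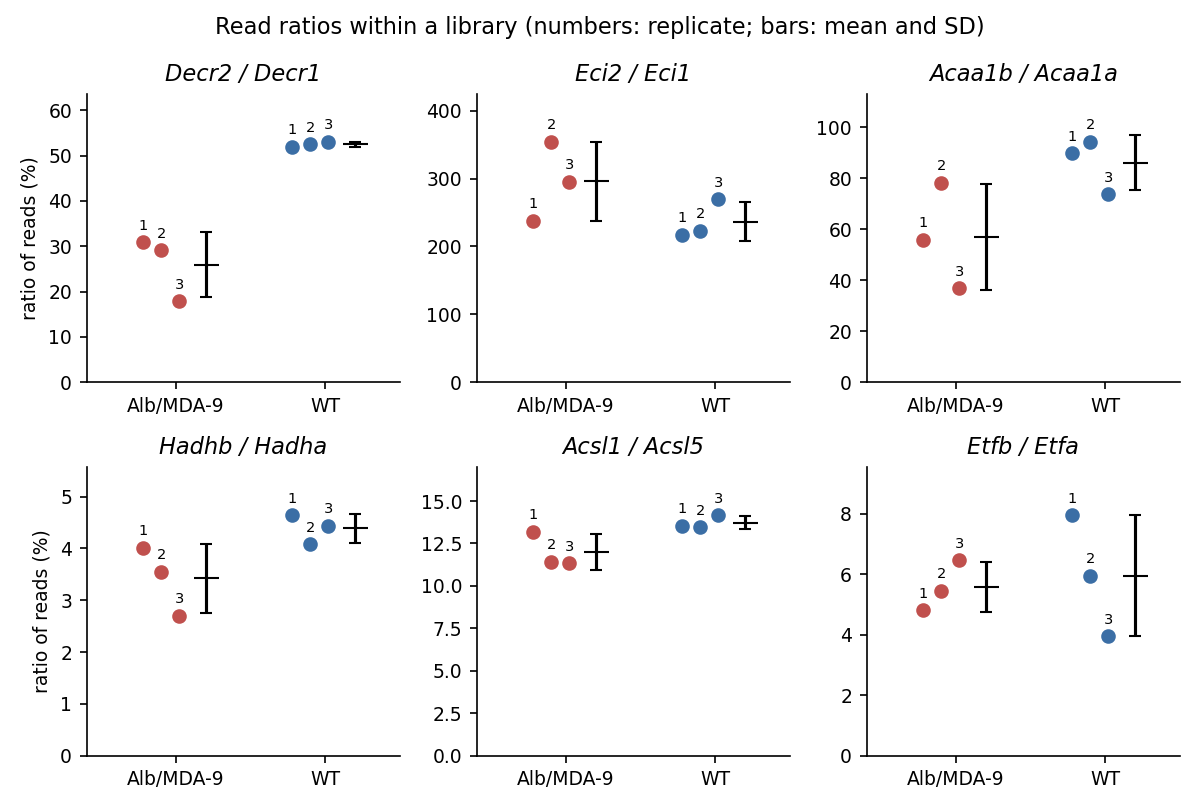
Reads of a gene as a percentage of the reads of its family or complex partner in the same library (points, numbered by replicate) with the mean and SD of each group (bars, n = 3). The groups do not overlap for Decr2 over Decr1, Hadhb over Hadha and Acsl1 over Acsl5, all lower in Alb/MDA-9, and overlap for the other 3 pairs.

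Levels were set side by side per length, as reads per kilobase of exon. The length was that of all annotated exons of a gene joined, which can exceed that of the transcripts present. The order between genes is therefore uncertain. Values were scaled to the same total in each library, with no TMM factor. On that scale Acsl5 was the highest of the 32 genes in Alb/MDA-9, at 295 ± 44.1 against 283 ± 3.81 in WT. Next came 4 mitochondrial genes, at 259 ± 43.8 in Alb/MDA-9 and 279 ± 16.3 in WT for Acaa2, 239.6 ± 32.1 and 207 ± 12.2 for Acadm, 221 ± 15.1 and 206 ± 4.47 for Acadl, and 218 ± 16.1 and 195 ± 11.5 for Acadvl (SD, n = 3 each). In Alb/MDA-9 neighbours in this order did not differ beyond their spread, whereas in WT Acaa2 lay above Acadm by more than the spread of both. Hadha (57.2 ± 3.52 in Alb/MDA-9, 51.8 ± 1.56 in WT) and Etfdh (52.9 ± 3.96, 48.2 ± 1.56) lay well below these 5 on this scale. Their joined exons hold 8730 and 7505 bases, against 1516 for Acaa2 and 2005 for Acadl. In CPM, without division by length, Hadha (191 in Alb/MDA-9) lay above Acadl (169) and Acaa2 (151). The level per length of Hadhb was 2.57 ± 0.384 in Alb/MDA-9 and 3.01 ± 0.240 in WT, and that of Etfb 13.3 ± 2.58 and 14.3 ± 4.07. The cause of the low Hadhb level was not tested. Among peroxisomal genes the highest level was that of Crot, at 42.9 ± 4.06 in Alb/MDA-9 and 46.7 ± 0.599 in WT. Decr2 stood at 10.7 ± 2.58 in Alb/MDA-9 and 20.8 ± 0.0720 in WT, and Acaa1b at 13.9 ± 2.37 and 23.4 ± 1.92, so that in Alb/MDA-9 both lay below Eci2 (23.7 ± 2.84) and in WT near it (23.4 ± 0.977). Bdh1 was low, at 6.10 ± 2.24 in Alb/MDA-9 and 8.91 ± 0.615 in WT.

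**Figure D5:**
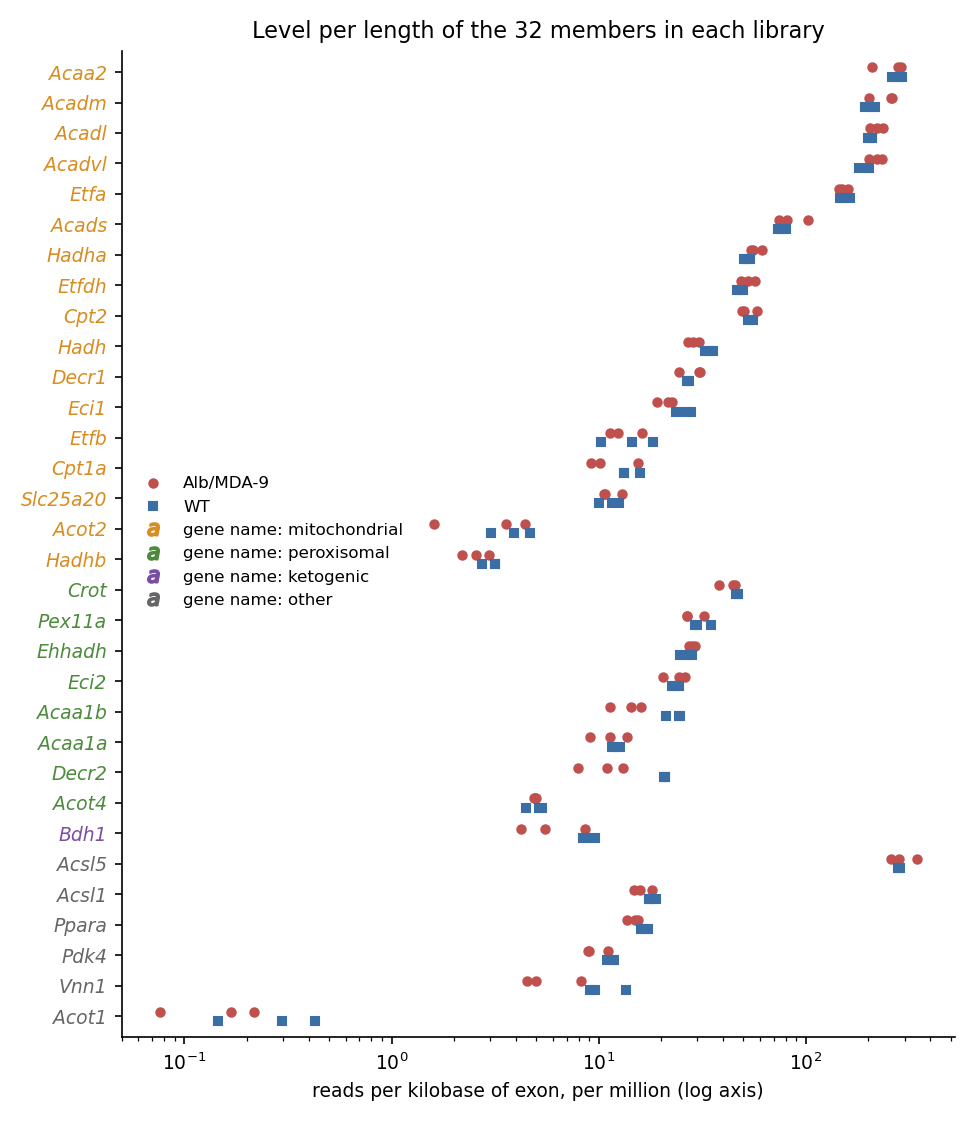
Level per length (reads per kilobase of exon at equal library totals) on a log axis for all 32 genes in each library, Alb/MDA-9 as circles above WT as squares, with gene names coloured by class and ordered by level within a class. Decr2 and Acaa1b are peroxisomal genes whose Alb/MDA-9 points lie apart from the WT points, and Acot1 lies lowest, under 1 in every library. The length counts all annotated exons of a gene, so the order between genes is uncertain.

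Other genes of the pathway, in 7 lists of 103 genes, gave 11 higher and 10 lower of 98 tested, beside background shares of 7.35% higher and 7.09% lower over all genes, with no list tested as a set. The other mitochondrial oxidation genes had 2 higher and 0 lower of 18, with a median log2 change of 0.15. Crat, the carnitine acetyltransferase, had 36.4 ± 1.69 CPM in Alb/MDA-9 and 26.0 ± 2.05 CPM in WT (log2 change 0.48, SE 0.09, edgeR adjusted p = 0.0036), and passed in all 14 alternatives. Acot9, a mitochondrial thioesterase, had 131 ± 6.62 CPM in Alb/MDA-9 and 109.8 ± 4.23 CPM in WT (log2 change 0.26, SE 0.07, edgeR adjusted p = 0.0285). The call of Acot9 was lost without Alb/MDA-9 1, Alb/MDA-9 2 or any 1 WT library (edgeR adjusted p = 0.0544 to 0.139). Its call was also lost with upper-quartile factors and with library totals.

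Genes of fatty acid uptake and activation moved in both directions, with 2 higher and 2 lower of 11 tested. The transporter Slc27a1 had 18.7, 18.3 and 12.6 CPM in Alb/MDA-9, against 6.66, 8.20 and 8.22 CPM in WT (log2 change 1.11, SE 0.17, edgeR adjusted p = 0.00094), and the synthetase Acsl3 had 49.7 ± 4.39 CPM in Alb/MDA-9 and 31.2 ± 5.15 CPM in WT (log2 change 0.67, SE 0.12). Slc27a2, the very long-chain synthetase and transporter of the liver, fell to 30.4 ± 5.05 CPM in Alb/MDA-9, against 43.7 ± 2.56 CPM in WT (log2 change -0.52, SE 0.11). Acsm5, a medium-chain synthetase, had 1.40 ± 0.379 CPM in Alb/MDA-9 and 3.64 ± 0.444 CPM in WT (log2 change -1.37, SE 0.28). These 4 passed in all 14 alternatives, with edgeR adjusted p of 0.0069 at most in the main setting.

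The other peroxisomal oxidation genes had 0 higher and 2 lower of 19 tested, with a median log2 change of -0.04. Nudt7, a coenzyme A diphosphatase, had 17.2 ± 1.67 CPM in Alb/MDA-9 and 23.8 ± 2.05 CPM in WT (log2 change -0.47, SE 0.11, edgeR adjusted p = 0.0151), and was lost without Alb/MDA-9 2 (0.0695) or WT 1 (0.0723). Amacr, the racemase for branched chains, had 9.34 ± 1.16 CPM in Alb/MDA-9 and 13.2 ± 1.62 CPM in WT (log2 change -0.50, SE 0.15, edgeR adjusted p = 0.0404). It was lost without Alb/MDA-9 1 (0.0808), Alb/MDA-9 2 (0.144), WT 2 (0.167) or WT 3 (0.132). Peroxisome assembly genes had 0 higher and 2 lower of 15, with a median log2 change of -0.12. The docking protein gene Pex13 had 33.9 ± 1.64 CPM in Alb/MDA-9 and 40.7 ± 0.0747 CPM in WT (log2 change -0.26, SE 0.08, edgeR adjusted p = 0.0378). The import receptor gene Pex7 had 24.9 ± 2.28 CPM in Alb/MDA-9 and 30.8 ± 1.06 CPM in WT (log2 change -0.31, SE 0.09, edgeR adjusted p = 0.0442). Both were lost without Alb/MDA-9 2 or 3 or any 1 WT library (edgeR adjusted p = 0.0584 to 0.152) and with DESeq2.

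Among other ketone body genes, 8 were tested. Slc16a6, which exports ketone bodies from hepatocytes as shown in zebrafish, had 62.4 ± 2.67 CPM in Alb/MDA-9 and 88.1 ± 7.99 CPM in WT (log2 change -0.50, SE 0.08, edgeR adjusted p = 0.0014), and passed in all 14 alternatives. Oxct1, the transferase by which other tissues use ketone bodies, had 27.7 ± 1.14 CPM in Alb/MDA-9 and 21.5 ± 1.28 CPM in WT (log2 change 0.37, SE 0.09, edgeR adjusted p = 0.0184). Its call was lost without Alb/MDA-9 1, Alb/MDA-9 2, WT 2 or WT 3 (edgeR adjusted p = 0.0508 to 0.0864) and with library totals.

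Among partners of PPAR-alpha and other regulators, 1 was higher and 2 were lower of 15. Lpin1, a phosphatidate phosphatase that is also a coactivator, had 62.2, 60.2 and 40.0 CPM in Alb/MDA-9, against 73.7, 76.3 and 77.7 CPM in WT (log2 change -0.49, SE 0.13, edgeR adjusted p = 0.0256), and was lost without any 1 WT library (0.0622 to 0.0805). Rxra, the DNA-binding partner of PPAR-alpha, had 83.6 ± 4.41 CPM in Alb/MDA-9 and 98.8 ± 0.372 CPM in WT (log2 change -0.24, SE 0.07, edgeR adjusted p = 0.0356). The corepressor gene Nrip1 had 74.2 ± 7.53 CPM in Alb/MDA-9 and 59.1 ± 6.22 CPM in WT (log2 change 0.33, SE 0.10, edgeR adjusted p = 0.0360). Rxra was lost without Alb/MDA-9 2 or any 1 WT library (edgeR adjusted p = 0.0775 to 0.142). The call of Nrip1 was lost without Alb/MDA-9 1, Alb/MDA-9 2, WT 1 or WT 2 (edgeR adjusted p = 0.103 to 0.158), and with upper-quartile factors and library totals.

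Other known targets of PPAR-alpha had 5 higher of 17 tested, and the number lower is not reported here. The fatty acid omega-hydroxylase gene Cyp4a10 had 43.2, 40.5 and 36.7 CPM in Alb/MDA-9, against 2.78, 1.59 and 1.72 CPM in WT (log2 change 4.29, SE 0.17, edgeR adjusted p = 8.8e-09), and its neighbour Cyp4a14 had 15.9, 9.84 and 10.5 CPM in Alb/MDA-9, against 0.303, 0.718 and 0.828 CPM in WT (log2 change 4.30, SE 0.31, edgeR adjusted p = 2.7e-06). Every Alb/MDA-9 library lay many fold above every WT library for both, and genes of this cluster are similar enough that reads may be shared or lost between copies. Plin2, which coats lipid droplets, had 690 ± 94.1 CPM in Alb/MDA-9 and 437 ± 19.6 CPM in WT (log2 change 0.66, SE 0.09, edgeR adjusted p = 0.00058). Of the 31 genes tested above, Acadvl, Hadha and Etfdh rose and Decr2, Acaa1b and Vnn1 fell. The others, Cpt1a, Acadm, Ehhadh, Pex11a and Pdk4 among them, did not pass the test. Whether PPAR-alpha had a part in any of these changes was not tested.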

How the data were processed

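RNA libraries of cultured hepatocytes, 3 per genotype, were prepared with a TruSeq kit and sequenced on a HiSeq3000, per the labels' protocols. The submitters' processing notes name the builds GRCm38 and mm10 and the tools STAR 2.7.9a, edgeR 3.18.1, Trim Galore 0.6.6 and FastQC 0.11.2, and the annotation release is not given in the sources used here. The deposited tables hold raw read counts per gene from STAR, which leaves out reads that fit several places or several genes, so copies and overlapping genes lose reads. Column 4, reverse-strand reads, held 96.9% to 97.2% of stranded reads and was used. The first 4 rows (unmapped reads 9.22% to 10.4%, reads at several places 18.7% to 20.2%, reads outside genes 4.90% to 6.01% and ambiguous reads 0.791% to 0.835% of all reads) were left out.

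Of 55487 identifiers 55227 were found in GENCODE M21 (GRCm38), the source of gene positions. Genes passing filterByExpr at a minimum count of 10 (13296) were scaled by TMM and tested with the edgeR 4.0.16 quasi-likelihood F test (R 4.3.3), Alb/MDA-9 over WT, without covariates, on all 6 libraries, with Benjamini-Hochberg adjustment over all of them and a threshold of 0.05. Group values are means and SDs of TMM-scaled CPM, n = 3. The test was checked on simulated counts whose changes were larger than those of the 6 changed genes, so the check does not cover changes of their size. Intervals and floors cover counting error or the spread of libraries only, since reads carried no molecular identifiers. Alternatives were 2 other low-count filters, 2 other scalings, DESeq2 1.42.0, limma 3.58.1 voom with quality weights, a replicate block, reads of either strand, and leaving out each library. Near-identical copies were found with BLAST+ 2.17.0 at 95% identity over 300 bases. Promoter sequences are from RefSeq on GRCm38.p6. Values in every library are printed for genes past the threshold and the highest genes of each class, together with some others chosen after their values were seen. From each other list at most 4 genes past the threshold with the smallest adjusted p and a mean of at least 1 CPM are named. The genes, lists and tests were chosen with earlier results of these data known. Some genes of the other lists are counted in the totals but not reported here. Protein sequences were not used here.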

Additional observations from a re-analysis of the deposited data

How the results depend on the processing

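Across 14 alternatives, the 6 changed genes kept their direction, with 55 of 84 values past the threshold and 29 not. Over all 31 tested genes 3 were higher and 3 lower. The number higher, all of them mitochondrial, was 5 without the low-count filter, 5 with DESeq2, 6 with voom, 0 with upper-quartile factors and 0 with library totals. Leaving out 1 library gave 0 to 5 genes higher and 1 to 5 lower, 0 to 5 mitochondrial genes higher and 0 to 1 lower, 1 to 2 peroxisomal genes lower and a mitochondrial median log2 change of 0.03768 to 0.1443. Over all genes it gave 503 to 1178 higher and 515 to 1208 lower, and over the other pathway lists 7 to 13 higher and 5 to 11 lower. Library totals gave 525 genes higher and 1622 lower in all, 1 mitochondrial gene lower (Hadh), 7 other pathway genes higher, and median log2 changes of -0.03229 (mitochondrial) and -0.09799 (peroxisomal). The cause was not tested. Same-numbered libraries did not deviate together (correlations -0.0408, -8.73e-05 and -0.0619). With 3 libraries per group this cannot show whether the numbers pair libraries. The replicate block gave 1 gene higher, the mitochondrial Acadvl, 2 lower and 6 other pathway genes lower.

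Changes near 0 turned sign: Acaa2 (-0.002087 at a minimum count of 50, -0.02811 with upper-quartile factors, -0.0953 with library totals, -0.004935 with the replicate block), Acaa1a (-0.01993 with upper-quartile factors, -0.08245 with library totals, -0.06796 with voom), Cpt2 (-0.04504), Etfa (-0.03229) and Acot4 (-0.008683) with library totals, and Etfb (0.04133 with voom, 0.007842 with the replicate block). With 1 library left out the log2 change ranged from -0.123 to 0.003544 for Ppara, -0.08515 to 0.006384 for Acsl1, -0.2346 to 0.01941 for Hadhb, -0.09109 to 0.1696 for Acaa2, -0.2023 to 0.2032 for Etfb, -0.0971 to 0.1408 for Acaa1a, -0.07734 to 0.04691 for Crot, -0.1218 to 0.0715 for Pex11a and -0.4337 to 0.1443 for Acot2. None of these genes passed the test in any of the 14 settings. Depth limits Acot1, at 2 to 10 reads per library.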
